A study of Homo sapiens with 10 samples.

Results

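The nuclear genes for the subunits of oxidative phosphorylation (OXPHOS) were followed through topotecan treatment of PC-3 tumor spheroids. A row of the expression table was a member when its symbol carried the stem of a subunit of complex I (NDUFA, NDUFB, NDUFC, NDUFS or NDUFV with a number), complex II (SDHA to SDHD), complex III (UQCR), complex IV (COX4I, COX5, COX6, COX7 or COX8) or complex V (ATP5). Pseudogenes, antisense RNAs and joined genes were left out. The rule found 81 members among 18144 genes, with 37 in complex I, 4 in complex II, 9 in complex III, 13 in complex IV and 18 in complex V. Membership rested on symbols alone and used no measured value. COX4I2, COX6A2, COX7A1, COX8C and the 13 subunits encoded by mitochondrial DNA were not analysed here.

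OXPHOS is the set of reactions by which mitochondria turn the electrons of NADH and succinate into ATP. Complexes I and II pass electrons to ubiquinone, complex III passes them on to cytochrome c, and complex IV hands them to oxygen, while I, III and IV pump the protons that drive the rotary ATP synthase, complex V. Most subunits are encoded in the nucleus, and complexes I, III, IV and V also need subunits made inside the mitochondrion, whereas complex II is wholly nuclear. Nuclear subunit genes are classically linked to the transcription factors NRF1, GABPA, YY1 and ERR-alpha.

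PC-3 is a human prostate cancer cell line with little androgen receptor, of wild-type genotype according to the labels, and it was grown here as 3D spheroids. Topotecan poisons DNA topoisomerase I. Spheroids were left untreated (days 0, 3 and 7), received topotecan as a conventional bolus (CONV-TOPO, days 3 and 7) or received it as small daily fractions, the metronomic or extended exposure regimen (EE-TOPO, days 3 and 7). Each treatment and day was 1 library, so the 7 libraries have no replicates, and 3 further samples of day 1 were not analysed here. The labels and the published text date the later time point differently, and the day 7 of the labels is used.

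Each library held an estimated 15027713 to 22477671 reads on the listed genes, and levels are CPM, the reads of a gene per 1000000 reads of its library. The 5 markers looked for in PC-3 (KRT8, KRT18, VIM, CD44 and EPCAM) were present and summed to 2532.5 to 2803.4 CPM in untreated libraries, to 2685.0 (day 3) and 3410.6 CPM (day 7) in CONV-TOPO, and to 2665.9 and 3512.3 CPM in EE-TOPO. As markers of other cell types, COL1A1, COL3A1, PDGFRB, PTPRC and PECAM1 summed to 83.7 to 119.9 CPM in untreated libraries, to 118.6 and 80.4 CPM in CONV-TOPO and to 90.1 and 73.3 CPM in EE-TOPO. COL1A1 was at 46.6 to 83.03 CPM and COL3A1 at 3.26 to 16.0 CPM, both collagen genes of fibroblasts, and PECAM1, of endothelium, at 16.8 to 32.7 CPM. PDGFRB, also of fibroblasts, reached at most 0.532 CPM and PTPRC, of leukocytes, at most 0.489 CPM. Whether PC-3 cells or other cells made these transcripts was not tested, nor was any part of other cells in the results. In bulk RNA, fewer cells of a type and less RNA per cell cannot be told apart.

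Of the 81 members, 80 passed the filter on low values and 79 averaged at least 10 CPM. The exceptions were COX6B2 and COX7B2, isoforms known from testis. Summed over members, the untreated libraries of days 0, 3 and 7 held 11903.9, 10009.6 and 9291.1 CPM. On day 3 the sum was 8106.4 CPM in CONV-TOPO and 7404.8 CPM in EE-TOPO, the lowest of the 7 libraries. On day 7 it was 11712.6 CPM in CONV-TOPO and 10830.1 CPM in EE-TOPO, above the untreated library of that day and below that of day 0. These sums are CPM without the scaling described next, and the order of CONV-TOPO on day 7 and day 0 depends on it.

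Per member, levels were compared as log2 ratios of CPM scaled by trimmed-mean (TMM) factors, plus 1 CPM. Against the day 0 library, the median member stood at 0.775-fold in untreated spheroids on day 3 and at 0.716-fold on day 7. It stood at 0.627-fold in CONV-TOPO and 0.568-fold in EE-TOPO on day 3, and at 1.104-fold and 1.017-fold on day 7. The medians over all 14836 genes tested lay between 0.975-fold and 1.0-fold. On day 7 complex I was the highest of the 5 complexes, at 1.23-fold in CONV-TOPO and 1.148-fold in EE-TOPO, and complex II the lowest, at 0.827-fold and 0.801-fold. On day 3 complex IV was the lowest in CONV-TOPO, at 0.566-fold, and complex V in EE-TOPO, at 0.513-fold.

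**Figure D1:**
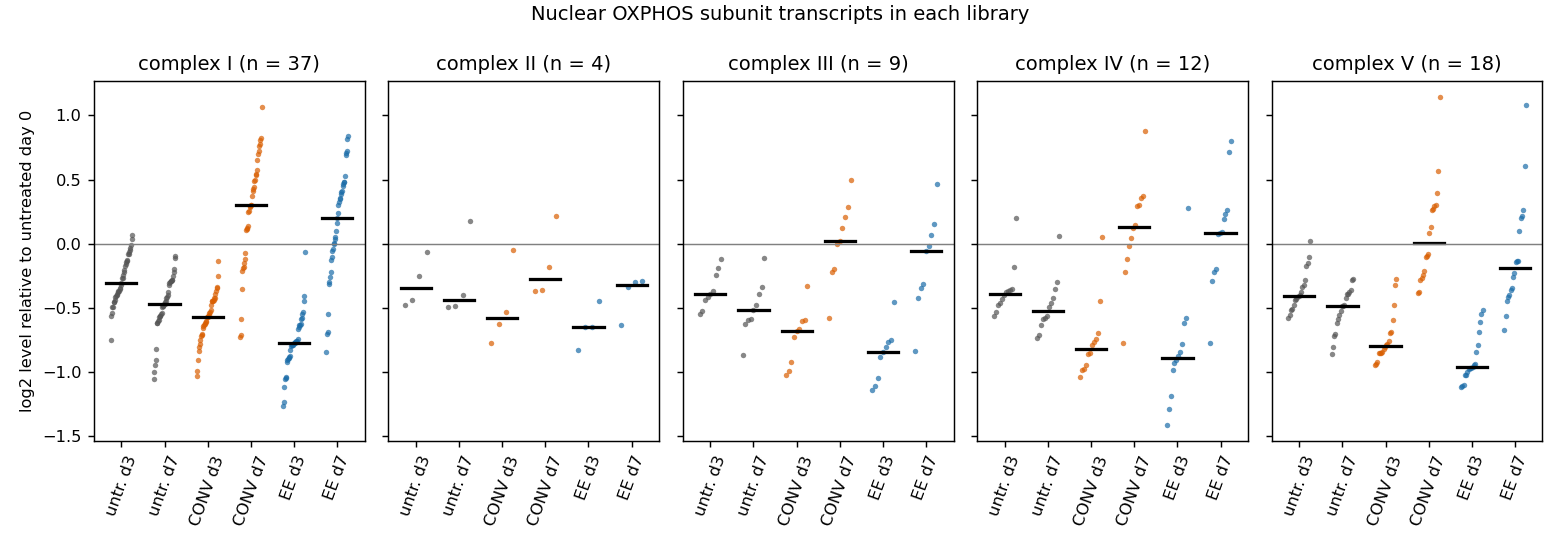
Log2 level of each tested member relative to the untreated library of day 0 (y axis) in the other 6 libraries (x axis), in 1 panel per complex. Each point is a gene, sorted by value within its library, and bars are medians. In every complex the day-3 topotecan libraries hold the lowest medians and the day-7 topotecan libraries the highest.

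The untreated spheroids show how the genes moved with culture time. From day 0 to day 7, 78 of 80 members were lower, with a median log2 ratio of -0.48, where 50.5% of all genes were lower. At least 1.5-fold lower were 21 of 79 members and 0 were as much higher, against 1.86% of all genes downward and 3.22% upward. From day 0 to day 3 only NDUFB9, an accessory subunit of complex I, passed this fold, from 278.7 to 175.4 CPM (2.55% of all genes were as much lower), and from day 3 to day 7 it was 4 members (3.61%). These pairs are single libraries and have no test. The contrasts of day 7 given below therefore start from an untreated library in which nearly all members were below their day 0 level.

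On day 3 the members were lower in both topotecan libraries than in the untreated library of the same day. The median log2 ratio was -0.50 in EE-TOPO, with 78 of 80 members lower, and -0.35 in CONV-TOPO, with 77 lower, where 52.5% and 51.4% of all genes were lower. At least 1.5-fold lower were 22 of 79 members in EE-TOPO (4.25% of all genes) and 2 in CONV-TOPO (2.02%), and 0 were as much higher, where 5.22% and 2.28% of all genes were. The counts of lower members were 12 and 1 with library totals in place of TMM factors, 9 and 1 with the trend in transcript length, gene span and GC content removed, and 67 and 52 against the day 0 library. The shares of all genes are not given for these alternatives. Both pairs share the untreated library.

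For a test, the EE-TOPO and CONV-TOPO libraries of a day were taken as 2 samples of topotecan in limma. The p-values thus measure only the spread between these libraries, and the lone untreated library of a day is assumed to vary alike. On day 3, 0 members passed an adjusted p of 0.05, which 0.0% of all genes passed upward and 0.0135% downward. At an unadjusted p under 0.05, 54 of 80 members were lower and 0 higher, against 6.39% and 5.12% of all genes. The median member was at -0.42 on the log2 scale, or 0.747-fold, and complexes I to V had medians of -0.42, -0.26, -0.43, -0.45 and -0.47. Both day-3 topotecan libraries lay below all 3 untreated libraries in 63 of 80 members, which held for 18.3% of all genes. That was 26 of 37 in complex I, 3 of 4 in II, 9 of 9 in III, 10 of 12 in IV and 15 of 18 in V.

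ATP5ME, subunit e in the membrane part of the ATP synthase, had the lowest day-3 value. ATP5ME without treatment had a CPM of 43.7, 47.1 and 25.3 (days 0, 3 and 7), with CONV-TOPO 26.1 and 36.5 (days 3 and 7), and with EE-TOPO 24.2 and 29.2. On day 3 both topotecan libraries were near the untreated level of day 7. The day-3 log2 difference was -0.94 ± 0.20 (SE, limma), with an adjusted p of 0.18, the smallest of any member. NDUFB1, a small accessory subunit of complex I, was at -0.81 ± 0.29, with 22.3 CPM untreated, 16.3 CPM in CONV-TOPO and 9.9 CPM in EE-TOPO. COX7C, a small subunit of complex IV, was at 352.3 CPM untreated, 238.4 CPM in CONV-TOPO and 218.1 CPM in EE-TOPO, a log2 difference of -0.68 ± 0.15. ATP5IF1, which keeps the ATP synthase from running in reverse, was the 1 tested member with an estimate above 0, at 0.12 ± 0.16.

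On day 7 most members stood above the untreated library. The median log2 ratio was 0.54 in EE-TOPO, with 69 of 80 members higher, and 0.72 in CONV-TOPO, with 72 higher, where 47.6% and 47.2% of all genes were higher. At least 1.5-fold higher were 36 of 79 members in EE-TOPO (21.8% of all genes) and 46 in CONV-TOPO (21.3%). These counts were 21 and 25 with library totals in place of TMM factors, 14 and 20 with the trend in transcript length, gene span and GC content removed, and 8 and 10 against the day 0 library. The shares of all genes are not given for these alternatives, so whether members exceed all genes there cannot be read from the counts. As much lower was only NDUFS1, in EE-TOPO, where 22.0% of all genes were. In limma, 48 of 80 members rose and 1 fell at an adjusted p of 0.05, against 18.6% and 20.2% of all genes. With that trend removed 26 were called higher, a setting for which no share of all genes is given. An additive fit, which takes 1 effect of each regimen over both days, called 0 members and 0 of all genes in limma. It averages the effects of day 3 and day 7, which had opposite signs in most members, so it cannot show an effect of 1 day. The median member was at 0.61 on the log2 scale, or 1.53-fold, with a median of -0.05 over all genes.

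The 5 complexes gave different counts, which stand beside the 18.6% of all genes called higher and the 20.2% called lower on day 7. In complex I, 26 of 37 members rose and 1 fell, with a median of 0.74. In complex II, 0 of 4 passed the adjusted or the unadjusted threshold, with a median of 0.02, where 22.6% of all genes were higher and 25.6% lower at the unadjusted one. In complex III 4 of 9 rose (median 0.31), in complex IV 8 of 12 (median 0.61) and in complex V 10 of 18 (median 0.60). Differences between complexes were not tested, and complex II has only 4 genes.

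**Figure D2:**
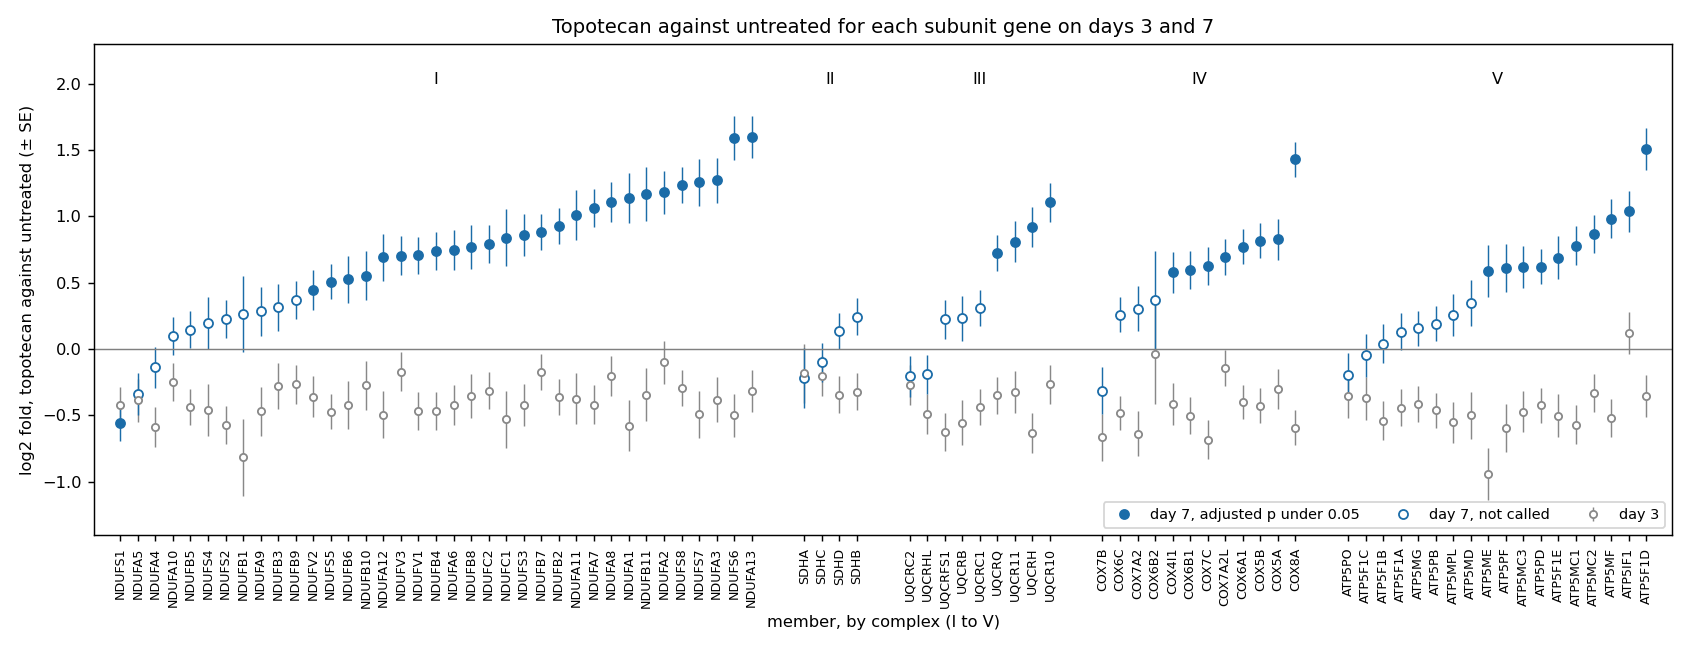
Log2 fold change of topotecan (both regimens) against untreated on the y axis, with its standard error from limma, for the 80 tested members on the x axis, grouped by complex and sorted by the day-7 value. Filled blue points passed an adjusted p of 0.05 on day 7, open blue points did not, and grey points are day 3. Of the filled points 48 lie above 0 and 1, NDUFS1, lies below.

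The change of the effect between the days was tested in the same fit. The day-7 effect exceeded the day-3 effect in 58 of 80 members and was below it in 0, against 14.7% and 13.9% of all genes, with a median difference of 1.05 on the log2 scale. By complex these were 28 of 37 in I, 0 of 4 in II, 7 of 9 in III, 10 of 12 in IV and 13 of 18 in V. The count was 31 without the EE-TOPO library of day 3, 25 with the length, span and GC trend removed and 36 with no filter on low values. The shares of all genes are not given for those settings. Both day-7 topotecan libraries lay above all 3 untreated libraries, day 0 included, in 40 of 80 members (29.2% of all genes) and below all 3 in 6 (34.0%). The 40 were 24 of complex I, 0 of II, 3 of III, 7 of IV and 6 of V.

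Complex I has 7 core nuclear subunits, which hold its flavin and iron-sulfur clusters or line its quinone site, and 30 accessory ones by the rule used. Of the core subunits 5 rose and 1 fell (median 0.71), and of the accessory subunits 21 rose (median 0.74). Of all genes 18.6% rose and 20.2% fell. NDUFS6 is an accessory subunit that binds zinc. NDUFS6 without treatment had a CPM of 59.2, 48.03 and 32.3 (days 0, 3 and 7), with CONV-TOPO 35.9 and 90.9 (days 3 and 7), and with EE-TOPO 34.3 and 78.6. Both day-7 topotecan values were above every untreated value. The day-7 log2 fold change was 1.59 ± 0.16 (limma, adjusted p = 0.000359).

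NDUFA13 without treatment had a CPM of 145.0, 119.0 and 77.1 (days 0, 3 and 7), with CONV-TOPO 106.3 and 215.5 (days 3 and 7), and with EE-TOPO 93.1 and 185.7. This accessory subunit, also called GRIM-19, again had its highest values in the day-7 topotecan libraries, and it rose by 1.60 ± 0.16 (limma, adjusted p = 0.000319). The iron-sulfur core subunits NDUFS7 and NDUFS8 rose by 1.26 ± 0.18 and 1.24 ± 0.14. NDUFV1, which holds the flavin that takes electrons from NADH, rose by 0.71 ± 0.14. NDUFA11, the most abundant complex I member per transcript length at 332 CPM per kb, rose by 1.01 ± 0.19, from 159.0 CPM untreated to 294.0 CPM in CONV-TOPO and 252.9 CPM in EE-TOPO.

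NDUFS1, the largest subunit of complex I and an iron-sulfur core protein, went the other way. NDUFS1 without treatment had a CPM of 146.2, 148.5 and 134.4 (days 0, 3 and 7), with CONV-TOPO 117.8 and 79.8 (days 3 and 7), and with EE-TOPO 112.4 and 74.5. All 4 topotecan values were below all 3 untreated values. It fell on day 7, with a log2 fold change of -0.56 ± 0.14 (limma, adjusted p = 0.0114). After removal of the trend with transcript length, gene span and GC content its value was 0.22 with an adjusted p of 0.335, and it was not called without the EE-TOPO library of day 7 or without the mean-variance trend of limma. NDUFA5, an accessory subunit, was at -0.34 ± 0.16 and did not pass (adjusted p = 0.127). NDUFA4, counted in complex I by its symbol but now held to belong to complex IV, was at -0.14 ± 0.15, with 89.4 CPM untreated, 67.2 CPM in CONV-TOPO and 70.5 CPM in EE-TOPO.

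Complex II is succinate dehydrogenase, which is also an enzyme of the tricarboxylic acid (TCA) cycle. SDHA without treatment had a CPM of 281.3, 284.7 and 340.6 (days 0, 3 and 7), with CONV-TOPO 297.0 and 293.7 (days 3 and 7), and with EE-TOPO 229.2 and 209.3. In this flavoprotein subunit both EE-TOPO values were the lowest of the 7 and both CONV-TOPO values lay within the untreated range. Its day-7 log2 value was -0.22 ± 0.23. SDHB, the iron-sulfur subunit, was at 0.25 ± 0.14 and the membrane anchors SDHC and SDHD at -0.10 ± 0.15 and 0.14 ± 0.14. SDHC was the most abundant of the 4 per length, at 122 CPM per kb. The pseudogenes SDHAP1 and SDHAP2, which resemble SDHA, were listed at 1.46 to 12.5 CPM, so how reads were split between them and SDHA is uncertain.

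In complex III, which passes electrons from ubiquinol to cytochrome c, the small subunits UQCR10, UQCRH, UQCR11 and UQCRQ rose, by 1.11 ± 0.15, 0.92 ± 0.15, 0.81 ± 0.16 and 0.73 ± 0.14. The core proteins UQCRC1 and UQCRC2 were at 0.31 ± 0.14 and -0.21 ± 0.15, the Rieske iron-sulfur protein UQCRFS1 at 0.23 ± 0.15 and UQCRB, a ubiquinone-binding subunit, at 0.23 ± 0.17, and none of these passed. UQCR10 without treatment had a CPM of 65.5, 48.1 and 45.1 (days 0, 3 and 7), with CONV-TOPO 42.9 and 83.4 (days 3 and 7), and with EE-TOPO 40.1 and 83.2. Both day-7 topotecan values of UQCR10 were the highest of the 7 libraries.

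UQCRH, the hinge protein, and UQCRHL, a single-exon copy elsewhere on chromosome 1, are near-identical and had different values. UQCRH without treatment had a CPM of 99.05, 77.4 and 57.7 (days 0, 3 and 7), with CONV-TOPO 54.0 and 97.3 (days 3 and 7), and with EE-TOPO 49.3 and 89.6. UQCRHL without treatment had a CPM of 177.4, 128.3 and 132.3 (days 0, 3 and 7), with CONV-TOPO 95.01 and 106.3 (days 3 and 7), and with EE-TOPO 94.8 and 90.7. UQCRH was back near its day 0 level on day 7 of topotecan, and UQCRHL stayed below every untreated value in all 4 topotecan libraries. On day 7 UQCRH rose (limma, adjusted p = 0.0018) and UQCRHL was at -0.19 ± 0.15 (adjusted p = 0.34). The reading frames, from the GENCODE transcripts, are printed because only bases that differ can tell the reads of the pair apart. Both are 276 bases long with 98.55% identity, and the 4 differences, in capitals, are G158A, G167A, G231A and G233A, counted from 1 at the A of the start codon with the UQCRH base first.
UQCRH: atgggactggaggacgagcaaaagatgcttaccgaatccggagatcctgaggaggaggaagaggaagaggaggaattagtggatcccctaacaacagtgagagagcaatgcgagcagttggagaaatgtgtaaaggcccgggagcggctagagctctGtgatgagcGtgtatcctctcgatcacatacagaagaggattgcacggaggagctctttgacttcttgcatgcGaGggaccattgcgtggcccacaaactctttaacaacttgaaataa
UQCRHL: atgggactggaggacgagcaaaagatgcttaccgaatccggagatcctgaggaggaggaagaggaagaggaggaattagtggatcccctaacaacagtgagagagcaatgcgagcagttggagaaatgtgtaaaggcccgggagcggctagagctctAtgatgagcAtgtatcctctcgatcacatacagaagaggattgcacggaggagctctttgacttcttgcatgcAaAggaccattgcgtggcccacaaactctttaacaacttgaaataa
A read within the frames that covers none of these 4 bases matches both, so how the counting split reads between the pair is uncertain and so are both values. UQCRHL was the most abundant complex III member per length, at 427 CPM per kb, on a transcript model that holds only the reading frame.

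Complex IV, cytochrome c oxidase, reduces oxygen to water. COX8A without treatment had a CPM of 267.2, 249.3 and 184.3 (days 0, 3 and 7), with CONV-TOPO 171.5 and 442.0 (days 3 and 7), and with EE-TOPO 172.1 and 404.1. In COX8A, the form of this small subunit found in most tissues, the day-3 topotecan values were the lowest and the day-7 topotecan values the highest of the 7. The day-7 log2 fold change was 1.43 ± 0.14 (limma, adjusted p = 0.000277) and the change between the days 2.02 ± 0.19 (adjusted p = 0.00136). COX5A and COX5B, on the matrix side of the enzyme, rose by 0.83 ± 0.15 and 0.82 ± 0.13. COX6A1 rose by 0.77 ± 0.13, COX7C by 0.63 ± 0.15, COX6B1 by 0.60 ± 0.14 and COX4I1 by 0.58 ± 0.16. COX6A1 was the most abundant member of complex IV per length, at 611 CPM per kb.

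COX7B, another small subunit, had the lowest day-7 value of complex IV. COX7B without treatment had a CPM of 177.1, 129.4 and 137.8 (days 0, 3 and 7), with CONV-TOPO 97.7 and 92.8 (days 3 and 7), and with EE-TOPO 73.4 and 94.9. All 4 topotecan values were below the untreated ones, but its day-7 value of -0.31 ± 0.18 did not pass (limma, adjusted p = 0.193). COX7A2, the form of its subunit made in most tissues, was at 0.31 ± 0.17 and COX6C at 0.26 ± 0.13, and neither passed. COX7A2L, a factor that joins complexes into supercomplexes, rose by 0.69 ± 0.14. COX6B2 was at 0.37 ± 0.37 on a level of 0.9 to 2.2 CPM, and COX7B2 was too low to test.

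Complex V was described by its modules, whose day-7 counts stand beside the 18.6% of all genes called higher and the 20.2% called lower. All 3 genes for subunit c, which encode the same ring protein with different import signals, rose on day 7. ATP5MC1 without treatment had a CPM of 66.9, 53.4 and 49.7 (days 0, 3 and 7), with CONV-TOPO 38.2 and 74.4 (days 3 and 7), and with EE-TOPO 36.2 and 71.7. Its log2 fold change was 0.78 ± 0.15, and ATP5MC2 and ATP5MC3 rose by 0.87 ± 0.14 and 0.62 ± 0.16. Of the 5 subunits of the F1 head, 2 rose, ATP5F1D and ATP5F1E, the delta and epsilon subunits of the central stalk, by 1.51 ± 0.16 and 0.69 ± 0.16. ATP5F1D without treatment had a CPM of 102.1, 88.6 and 82.9 (days 0, 3 and 7), with CONV-TOPO 79.7 and 203.5 (days 3 and 7), and with EE-TOPO 65.2 and 199.5.

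The larger F1 subunits did not pass. ATP5F1B without treatment had a CPM of 875.0, 834.4 and 728.9 (days 0, 3 and 7), with CONV-TOPO 590.5 and 646.5 (days 3 and 7), and with EE-TOPO 603.3 and 624.8. In this catalytic beta subunit all 4 topotecan values were below all 3 untreated values in CPM. After scaling by TMM factors, which were 0.8829 and 0.9006 in the day-7 topotecan libraries and 1.0514 in the untreated one, the day-7 log2 value was 0.04 ± 0.15. It was -0.20 when scaled by library totals. ATP5F1A, the alpha subunit, was at 0.13 ± 0.14 and ATP5F1C, the gamma subunit, at -0.05 ± 0.16. ATP5F1B was the most abundant complex V member per length, at 398 CPM per kb.

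Of the 4 subunits of the peripheral stalk, ATP5PD and ATP5PF rose, by 0.62 ± 0.13 and 0.61 ± 0.18. ATP5PO, which links the stalk to F1, was at -0.20 ± 0.17 and ATP5PB at 0.19 ± 0.13. Of the 5 accessory subunits of the membrane part, ATP5MF and ATP5ME rose, by 0.98 ± 0.15 and 0.59 ± 0.20. ATP5IF1 without treatment had a CPM of 86.3, 63.6 and 56.2 (days 0, 3 and 7), with CONV-TOPO 77.8 and 102.7 (days 3 and 7), and with EE-TOPO 66.9 and 95.4. This inhibitor rose by 1.04 ± 0.16 on day 7, when both topotecan values were above all untreated values.

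**Figure D3:**
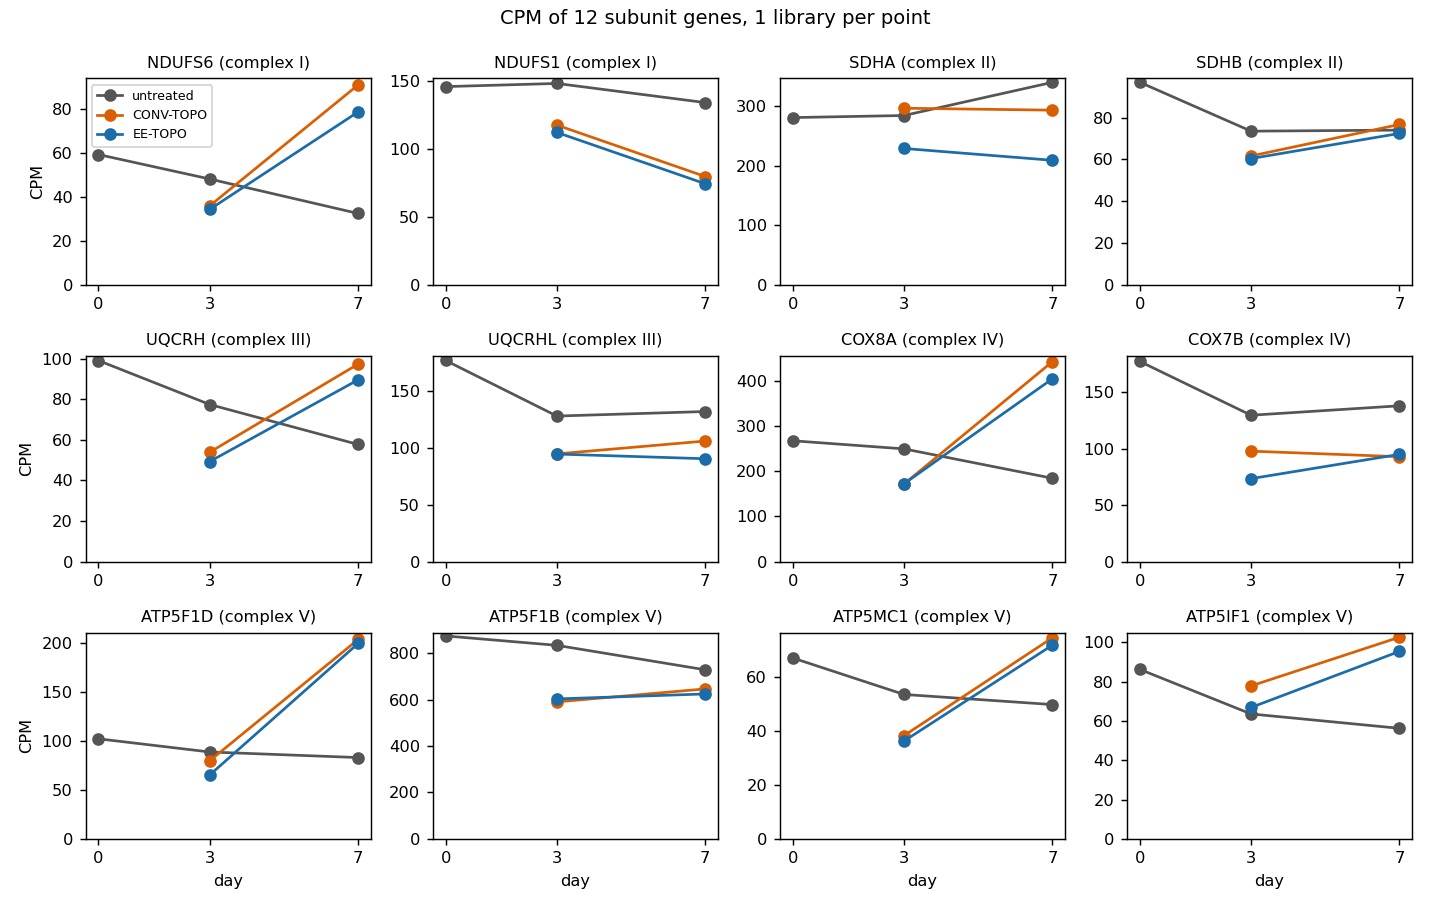
CPM (y axis, from 0) against day (x axis) for 12 members in untreated (grey), CONV-TOPO (orange) and EE-TOPO (blue) spheroids, with 1 library per point. NDUFS6, COX8A and ATP5F1D reach their highest values in the day-7 topotecan libraries, such as 442.0 and 404.1 CPM for COX8A, whereas NDUFS1 has its lowest there, 79.8 and 74.5 CPM.

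Between the regimens, EE-TOPO was slightly below CONV-TOPO in most members on both days. The median log2 ratio was -0.15 on day 3, with 74 of 80 members lower, and -0.12 on day 7, with 69 lower, where 50.3% and 51.0% of all genes were lower. In limma with day as a term, 0 members passed an adjusted or an unadjusted p of 0.05. Of all genes 0 passed the adjusted p, and at the unadjusted p 0.229% were lower and 0.674% higher. This fit includes the untreated libraries, so its error also holds the change of the topotecan effect between the days. It could therefore hardly find a difference between regimens. The median standard error of a member was 0.326, against a median difference of -0.14, and it was 0.113 with only the 4 topotecan libraries. In that smaller fit 0 members passed the adjusted threshold, which 79 of 14836 genes passed. At the unadjusted one 11 members were lower (13.75%) and 0 higher, against 4.88% and 5.09% of all genes.

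SDHA was the member with the lowest regimen estimate, -0.46 ± 0.22 on the log2 scale (limma, unadjusted p = 0.0849). On day 7 SDHA in EE-TOPO was at 0.699-fold of CONV-TOPO, with an exact 95% binomial interval of 0.668 to 0.731 from estimated reads, which covers counting error only. NDUFB1 was at -0.40 ± 0.38, with 13.1 and 12.2 CPM on day 7, so its day-3 gap did not recur. ATP5PF was at -0.29 ± 0.36, UQCRB at -0.25 ± 0.29 and COX4I1 at -0.22 ± 0.32. COX6B2, at the low level given above, had the highest estimate, 0.49 ± 0.31. At least 1.5-fold lower in EE-TOPO was 1 of 79 members on day 3, NDUFB1 (1.31% of all genes), and 0 on day 7 (1.58%).

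**Figure D4:**
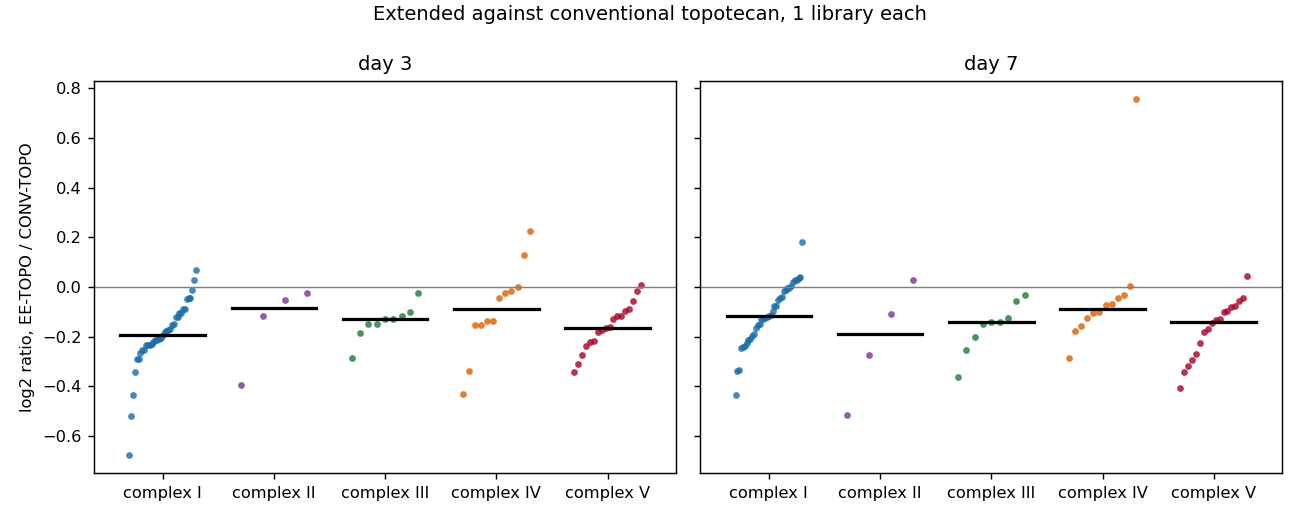
Log2 ratio of EE-TOPO to CONV-TOPO (y axis) for each tested member by complex (x axis), on day 3 (left) and day 7 (right), with 1 library per regimen and day. Points are genes and bars are medians, which lie between -0.19 and -0.08 in the 5 complexes on both days.

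Promoters of the members were searched for the motifs of the factors named above. A promoter (250 bases before to 50 after the start, RefSeq, GRCh38.p14) was at hand for 67 of 81 members. The palindromic NRF1 motif was found on either strand in 16 of 67 (23.9%), against 6.28% of 27305 promoters and 11.2% of those of tested genes. CCGGAAG, for GABPA and other ETS factors, was in 20 (29.9%, against 10.7% and 18.4%) and AANATGGC, for YY1, in 22 (32.8%, against 6.82% and 9.75%). TCAAGGTCA, for ERR-alpha, was in 1, that of SDHD (1.49%, against 0.359% and 0.21%), and the E-box CACGTG in 7 (10.4%, against 7.43% and 9.74%). Matches of CCGGAAG and AANATGGC can share letters. A match is a description of letters, not a binding site.

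Promoters are printed for UQCR10 and COX8A, the members with the highest day-7 values in complexes III and IV, and for NDUFS1, the member that fell, to show that matches occur on both sides. Each runs 5′ to 3′ along its gene with the motif matches in capitals. UQCR10 (chr22:29767119-29767418, plus strand) holds an NRF1 and a YY1 match. COX8A (chr11:63974370-63974669, plus strand) and NDUFS1 (chr2:206159395-206159694, minus strand) each hold a GABPA/ETS and a YY1 match, all read from the opposite strand.
UQCR10: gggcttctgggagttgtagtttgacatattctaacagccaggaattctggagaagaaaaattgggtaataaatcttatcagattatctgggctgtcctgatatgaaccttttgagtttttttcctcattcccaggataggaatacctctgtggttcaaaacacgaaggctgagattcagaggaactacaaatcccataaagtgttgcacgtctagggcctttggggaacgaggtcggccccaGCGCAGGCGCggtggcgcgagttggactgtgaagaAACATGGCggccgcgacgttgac
COX8A: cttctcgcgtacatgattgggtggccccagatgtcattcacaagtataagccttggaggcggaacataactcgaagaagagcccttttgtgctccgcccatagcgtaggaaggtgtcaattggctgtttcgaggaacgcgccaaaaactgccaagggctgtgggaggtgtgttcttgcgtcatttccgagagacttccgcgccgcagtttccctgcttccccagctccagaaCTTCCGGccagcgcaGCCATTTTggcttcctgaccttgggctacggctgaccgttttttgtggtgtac
NDUFS1: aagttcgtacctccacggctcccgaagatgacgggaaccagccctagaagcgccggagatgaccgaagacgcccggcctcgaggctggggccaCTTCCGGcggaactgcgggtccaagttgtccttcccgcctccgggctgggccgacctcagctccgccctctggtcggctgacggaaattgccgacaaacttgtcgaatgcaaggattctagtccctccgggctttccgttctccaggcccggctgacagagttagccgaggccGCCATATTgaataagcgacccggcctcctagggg

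Of 14 tested regulators of mitochondrial biogenesis, 1 rose and 3 fell on day 7 in limma, beside 18.6% and 20.2% of all genes, so the share that fell was near that of all genes. ESRRA, the gene of ERR-alpha, rose by 0.86 ± 0.14, from 82.7 CPM untreated to 127.3 CPM in CONV-TOPO and 129.1 CPM in EE-TOPO. GABPA fell, at -1.39 ± 0.18 (adjusted p = 0.00073), from 57.8 CPM untreated to 16.3 CPM in CONV-TOPO and 20.2 CPM in EE-TOPO. TFAM, which packages and transcribes mitochondrial DNA, fell at -0.67 ± 0.16, and POLG, which copies it, at -0.45 ± 0.16. NRF1 was at -0.09 ± 0.30 and YY1 at -0.36 ± 0.13 (adjusted p = 0.0522), and neither passed.

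Other genes of the pathway are given beside the 18.6% of all genes that were called higher and the 20.2% called lower on day 7, and differences between these lists and the members were not tested. Of 55 assembly factors, 14 rose and 3 fell on day 7, with a median of 0.34. Upward they held SCO2, which delivers copper to complex IV (1.58 ± 0.19), UQCC3 (1.47 ± 0.19) and NDUFAF3 (1.21 ± 0.16), and downward LYRM7, a complex III factor (-1.13 ± 0.19). Of 18 TCA cycle enzymes, IDH2, IDH3B, IDH3G and MDH2 rose and DLD, DLAT and SUCLA2 fell, with a median of 0.04, and both shares were near those of all genes. Of 14 electron carriers and feeders, ETFB rose by 1.11 ± 0.16 and GPD2 fell (-0.76 ± 0.14), and CYCS, cytochrome c, was at -0.07 ± 0.13. Of 4 hypoxia-linked isoforms and factors, HIGD2A rose by 1.01 ± 0.14, and NDUFA4L2 was called at a level of at most 1.03 CPM. On day 3, 0 genes of these lists were called, and the medians were -0.21 for assembly factors, -0.42 for TCA enzymes and -0.22 for carriers.

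The 77 genes of mitochondrial ribosomal proteins, which build the machinery that makes the mitochondrially encoded subunits, had medians of -0.31 on day 3 and 0.51 on day 7. Of these, 41 rose and 0 fell on day 7, beside 48 and 1 of the 80 members and 18.6% and 20.2% of all genes. The difference between the sets was not tested.

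Members have short transcripts. The median of the canonical GENCODE models was 760 bases, against 3205 bases for all tested genes, and the median GC content 47.1% against 48.7%. Across the 80 members the day-7 log2 ratio was lower in longer transcripts, with Pearson's r of -0.47 in EE-TOPO and -0.48 in CONV-TOPO for log length, and higher with GC content, with r of 0.61 and 0.59. Across all 14428 tested genes with a model, r was -0.48 and -0.51 for length and 0.42 and 0.43 for GC content. In untreated spheroids the ratio of day 7 to day 0 went the other way with length, with r of 0.45 in members and 0.28 in all genes, and it shares the untreated library of day 7 with those ratios. The genes share their libraries, so these values are descriptions.

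Among the 606 tested genes of at most 760.5 bases, the day-7 medians were 0.52 in EE-TOPO and 0.58 in CONV-TOPO, and in the 40 members among them 0.72 and 0.82. Among longer genes they were -0.06 in both, and in the 40 longer members 0.26 and 0.34. On day 3 the short genes had medians of -0.21 and -0.09 and the short members -0.55 and -0.41. With the trend in length, gene span and GC content removed, 26 members were called higher on day 7, with a median of 0.29, and the day-3 median was -0.27. The medians over all genes were then 0.03 on day 7 and -0.02 on day 3, and their share called is not given. The 1 member then called lower was ATP5PO, at -0.60 (limma, adjusted p = 0.025), named after its value was seen.

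**Figure D5:**
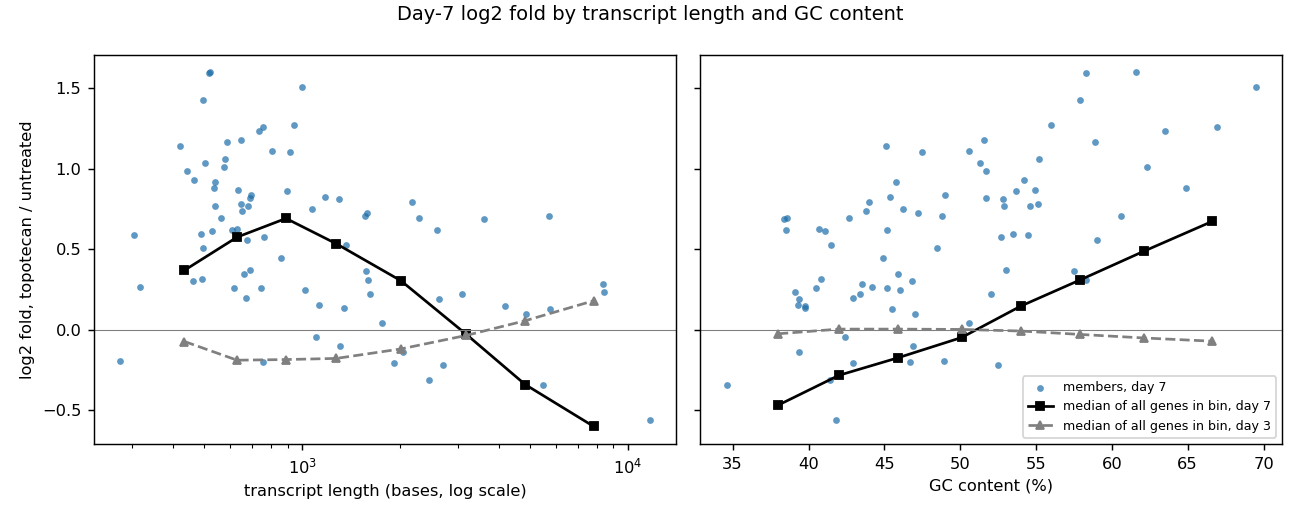
Day-7 log2 fold change of topotecan against untreated (y axis) by transcript length (left, log axis) and GC content (right) for the 80 members (blue points). Black squares are day-7 medians and grey triangles day-3 medians of all tested genes in bins of each feature, and the day-7 medians by length go from 0.69 at 750 to 1000 bases to -0.60 from 6000 bases upward.

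Scaling sets the zero of these ratios. With library totals in place of TMM factors, the day-7 median was -0.25 over all genes and 0.38 over members, so that members stood 0.63 above all genes, against 0.66 with TMM. Then 38 members were called higher and 5 lower on day 7, 88.4% of calls upward instead of 98.0%. The share of all genes called with library totals is not given. The day-7 topotecan libraries listed 1658 and 2126 genes at 0, against 586 to 1249 in the other 5. Some members overlap another gene, and the kit does not mark strand, so their values are uncertain. These are ATP5MF with the joined gene ATP5MF-PTCD1 (0.042 to 5.83 CPM), NDUFC2 with NDUFC2-KCTD14 (7.16 to 12.1 CPM), and NDUFB2, NDUFV2 and NDUFA6 with the antisense or divergent genes NDUFB2-AS1, NDUFV2-AS1 and NDUFA6-DT.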

How the data were processed

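RNA was sequenced from 7 PC-3 spheroid libraries (TruSeq RNA v2, unstranded, paired 150-base reads, STAR, hg38; Partek is named in the submitters' processing notes). The authors deposited CPM with 0.0001 added, which was subtracted. The counting tool, annotation and gene filter are not given in the sources used here. Only 89.8 to 91.6% of low values were whole reads within 0.05 of a read, so limma was used and no count test was run. CPM was scaled by TMM factors (30% and 5% trims) and tested as log2(CPM + 1), which understates changes of low genes. Genes needed 0.5284 CPM (10 reads at the median depth of 18925974 reads) in at least 2 libraries. limma 3.58.1 (R 4.3.3) fitted 5 cells with 2 residual degrees of freedom, with Benjamini-Hochberg adjustment over 14836 genes. In simulated data 200 genes were changed 2-fold on day 7. The fit recovered 99.5% of them at a log2 noise SD of 0.1 and 56.0% at 0.2, with 10 and 4 false calls. Fold counts used genes averaging 10 CPM in a pair. Transcript models were GENCODE release 44. The rest used Python 3.11.15 (scipy 1.17.1, pandas 2.3.3, numpy 2.4.6), and figures were drawn in matplotlib 3.10.9. Named genes were, per complex, the 2 highest and 2 lowest on day 7, the largest on day 3 and between regimens, and the most abundant per length, plus the SDH genes, the paralogue sets, NDUFA4 and ATP5IF1. Other members named for their role were chosen with their values seen. Members and lists were chosen with earlier results of these data known. Alternatives were other scaling, pseudocounts, filters, folds, baselines and left-out libraries.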

Additional observations from a re-analysis of the deposited data

Results flagged for a closer look

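For 22 of the named members the effect of topotecan on day 7 differed from that on day 3 at an adjusted p of 0.05 in limma, by a test of the difference itself over all genes. In complex I the difference on the log2 scale was 2.09 for NDUFS6, 1.91 for NDUFA13 and 1.39 for NDUFA11. In complex III it was 1.55 for UQCRH, 1.37 for UQCR10 and 0.79 for UQCRB. In complex IV it was 2.02 for COX8A, 1.31 for COX7C, 1.17 for COX6A1, 1.13 for COX5A, 1.10 for COX6B1, 0.99 for COX4I1, 0.94 for COX7A2, 0.84 for COX7A2L and 0.74 for COX6C. In complex V it was 1.86 for ATP5F1D, 1.53 for ATP5ME, 1.35 for ATP5MC1, 1.21 for ATP5PF, 1.20 for ATP5MC2, 1.09 for ATP5MC3 and 0.92 for ATP5IF1. Of all tested members 58 of 80 passed upward, and of all genes 14.7%. Many named members were picked by their day-7 or day-3 values, so their count cannot be set against that share.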

How the results depend on the processing

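Of the values of single genes, 1151 kept their direction and side of the threshold under an alternative, 85 lost and 7 gained a call, and 21 turned direction; of medians and counts, 160 held and 52 moved. Counts of members at least 1.5-fold lower on day 3 are given as EE-TOPO, CONV-TOPO, and those of day 7 as higher then lower. Except for the additive fit, no share of all genes is given beside the counts under these alternatives. With library totals they were 12 and 1 on day 3, and 21 and 3 (EE-TOPO) and 25 and 1 (CONV-TOPO) on day 7, with day-7 medians of 0.31 and 0.47 and 5 members called lower in limma. With the length, span and GC trend removed, the medians were -0.32 and -0.25 on day 3 and 0.23 and 0.36 on day 7, the counts 9 and 1 lower and 14 and 20 higher, and limma called 26 members higher on day 7 and 25 for the difference between days. Against the day 0 library the medians were -0.82 and -0.67 on day 3 and 0.024 and 0.14 on day 7, with 67 and 52 lower on day 3, 8 higher and 7 lower in EE-TOPO and 10 higher and 4 lower in CONV-TOPO on day 7. Against the mean of the 3 untreated libraries the day-7 medians were 0.31 and 0.48, with 8 lower in CONV-TOPO on day 3, 17 higher in EE-TOPO and 1 lower in CONV-TOPO on day 7. At 2-fold, 2 and 0 were lower on day 3, 12 higher and 0 lower in EE-TOPO and 17 higher in CONV-TOPO. At the smaller alternative fold, 70 and 46 were lower on day 3, and 3 and 1 lower on day 7. In limma the additive fit over both days called 0 higher and 0 lower for EE-TOPO and for CONV-TOPO, as it did over all genes. A fit with no mean-variance trend called 0 lower, the untreated libraries as 1 group of 3 called 2 lower, and no filter on low values gave 36 for the difference. Leaving out each topotecan library in turn, the lone sample of that day being assumed to vary like the others, gave 40 to 47 members higher and 0 to 1 lower on day 7 (0 without EE-TOPO of day 7), 0 to 0 on day 3, and 31 to 57 for the difference.

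Directions turned for these log2 values. With the trend removed, day 7 was 0.22 for NDUFS1, 0.34 for NDUFA5, -0.045 for SDHD, -0.033 for SDHB, -0.28 for ATP5F1B, -0.18 for COX6B2 and -0.024 for COX7A2, and day 3 was 0.084 for COX6B2. With library totals, day 7 was -0.096 for SDHD, -0.004 for UQCRB and -0.20 for ATP5F1B. With the untreated libraries as 1 group, day 7 was -0.31 for NDUFB1, -0.105 for SDHD and -0.15 for ATP5F1B, and day 3 was 0.077 for COX6B2. Leaving out libraries, SDHA ranged from -0.38 to 0.015 on day 3 and from -0.477 to 0.038 on day 7, SDHC from -0.235 to 0.038, ATP5F1C from -0.193 to 0.10 and COX6B2 from -0.012 to 0.747 on day 7. The turned values were those without the EE-TOPO library of that day. COX6B2 on day 3 ranged from -0.153 to 0.072, the latter without CONV-TOPO of day 3. The cause was not tested. No paired analysis was possible by replicate number, because each treatment and day has 1 library and no such numbers are shared. The libraries share only their day, which was a term in the fits of the regimens and over both days. With 1 library a group, depth limits counting error only, and variation between cultures is unknown.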
